A study of Mus musculus with 16 samples.

Results

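The BCL2 family decides whether a lymphocyte survives or enters apoptosis, and 10 of its genes were followed in bulk mRNA-Seq of lung group 2 innate lymphoid cells (ILC2s). They were taken by name from the 51912 genes of the deposited table: the anti-apoptotic genes Bcl2, Bcl2l1, Mcl1, Bcl2a1a, Bcl2a1b, and Bcl2a1d, the BH3-only genes Bcl2l11, Bid, and Pmaip1, and the effector Bax. All 10 were among the 14979 genes with enough counts to be tested. As background, the effectors Bax and Bak1 permeabilize the mitochondrial outer membrane and release cytochrome c, which starts the caspase cascade. The anti-apoptotic proteins bind and restrain the effectors, and the BH3-only proteins displace that restraint when growth factors are withdrawn or the cell is damaged. IL-7, on which ILC2s depend, is known to keep lymphocytes alive in part through Bcl2 and Mcl1.

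Lung ILC2s came from WT and Pac1-/- mice on the C57BL/6J background that were 6 to 8 weeks old. Pac1-/- mice constitutively lack the phosphatase PAC1, encoded by Dusp2. The cells were stimulated for 4 hours with IL-7 at 100 ng/mL, with IL-7 plus IL-33 at 100 ng/mL, or with IL-7 plus IL-33 and either calcitonin gene-related peptide (CGRP) or neuromedin U (NMU), each at 500 ng/mL. IL-7 was therefore present during the stimulation of every library, and no group lacked a survival cytokine in those 4 hours. In the paper's culture method, sorted lung ILC2s were first expanded with IL-2 and IL-7, and both were removed before the stimuli. Its mRNA-Seq method does not repeat this step, so the cells of all groups may have been expanded and then deprived of IL-2. The treatments are called IL-7, IL-33, CGRP, and NMU here. There were 8 groups, 1 for each genotype under each treatment, with 2 libraries of about 500 ILC2s apiece, so each treatment had 4 libraries and each genotype 8. The labels do not say whether the replicates came from separate animals or cultures, so P values measure only the spread between these libraries, which may be technical.

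The libraries held 6764992 to 15963357 gene counts (median 11071278). A floor of 3 counts equalled 0.171 to 0.462 CPM, the depth-scaled read count with edgeR's TMM scaling, and this covers counting error only. The targeted gene Dusp2 had 0 counts in 8 of 8 Pac1-/- libraries but also in 6 of 8 WT libraries, so it could not check most labels. The ILC2 markers Gata3 and Il1rl1 were at 495 to 1118 and 516 to 1302 CPM, whereas markers of T cells summed to 35.6 to 345 CPM, those of mast cells and basophils to 111 to 333 CPM, those of dendritic cells to 38.9 to 181 CPM, and those of neutrophils to at most 0.986 CPM. In the mast cell list, Cpa3 reached 174 CPM and Kit 201 CPM, while Mcpt4, Mcpt8, Tpsb2, and Cma1 did not exceed 0.912 CPM. In the dendritic cell list, Xcr1 reached 174 CPM and Ccr7 23.6 CPM, while Flt3, Itgax, and Siglech did not exceed 1.42 CPM. One Pac1-/- IL-33 library (replicate 2) had the highest scaling factor, 1.27 against 0.899 to 1.15 in the others. Correlations between libraries were taken over log2 CPM of genes averaging 20 CPM or more. Pac1-/- CGRP replicate 2 had the lowest median correlation with the other libraries, 0.700. The other CGRP libraries were at 0.735 to 0.764, and the IL-7, IL-33, and NMU libraries at 0.790 to 0.864. In bulk libraries, fewer cells of a type and less RNA per cell cannot be told apart.

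The 3 Bcl2a1 genes are near-identical copies of the gene for A1, a short-lived anti-apoptotic protein, and lie on chromosome 9 (Bcl2a1d, 88723285 to 88731914; Bcl2a1a, 88956900 to 88962419; Bcl2a1b, 89199209 to 89207827; GRCm38, GENCODE M21). Over 519 coding bases, Bcl2a1a and Bcl2a1b differed at 11, Bcl2a1a and Bcl2a1d at 7, and Bcl2a1b and Bcl2a1d at 6. The share of 150-base stretches of a transcript that also occurred in another copy was 28.2% for Bcl2a1a, 14.2% for Bcl2a1b, and 30.3% for Bcl2a1d. Stretches near-identical to each of the 3 copies also occur in Bcl2a1c and Gm29094. How the authors' counting treated reads that match several copies is not given in the sources used here, so the split of reads among the copies is uncertain. The opening 60 coding bases of each copy are printed here as the coding stretch of that length with the most differences. They hold 6 of the 12 positions at which the 3 copies differ. Capitals mark those positions.
Bcl2a1a, chr9:88957051-88957110, plus strand: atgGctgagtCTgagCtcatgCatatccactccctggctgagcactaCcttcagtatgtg
Bcl2a1b, chr9:89199360-89199419, plus strand: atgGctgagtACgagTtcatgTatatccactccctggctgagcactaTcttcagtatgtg
Bcl2a1d, chr9:88731660-88731719, minus strand: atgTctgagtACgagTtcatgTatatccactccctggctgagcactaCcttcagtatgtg

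The other members lie on separate chromosomes apart from a pair on chromosome 2. Bcl2 (ENSMUSG00000057329) spans chromosome 1 from 106538178 to 106714274, Bcl2l1, which encodes BCL-XL, chromosome 2 from 152780668 to 152831728, and Mcl1 chromosome 3 from 95658788 to 95663176. Bcl2l11, which encodes BIM, spans chromosome 2 from 128126038 to 128162547, Bid chromosome 6 from 120891930 to 120916853, and Bax (ENSMUSG00000003873) chromosome 7 from 45461697 to 45466898. Pmaip1 encodes NOXA. Exons of 558 of the 9157 exon bases of Bcl2 overlap the antisense gene D630008O14Rik, and 628 of the 3550 exon bases of Bid overlap Bcl2l13 on the opposite strand. Since the use of strand in counting is not stated, those bases could be counted for either gene. On the same strand, 401 of the 817 exon bases of Bcl2a1b overlap Gm29094, and 192 of the 1576 of Bax overlap Gm45808. A strand setting does not separate these, and how such reads were counted is not given. D630008O14Rik itself had 0 to 13.9 CPM.

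Promoter windows of 300 bases, 250 before and 50 after the start, were available from RefSeq (GRCm38.p6) for 9 of the 10 members, 12 windows in all. They were searched on both strands for the half-site TGACG of the cAMP response element, the full palindromic element, a STAT5 site (TTC and GAA with 3 bases between them), a forkhead site (GTAAACA), and a p53 half-site. CGRP is known to signal through cAMP in ILC2s, and Bax is a known p53 target. The half-site TGACG was found in the windows of Bcl2, Mcl1, Bcl2a1a, Bcl2a1b, and Bcl2a1d, against 20.8% of all 32851 windows. The Bcl2a1 genes are near-identical copies, with the match at the same position (-22) in Bcl2a1a and Bcl2a1d. Their matches are not separate, and no excess is read from the count. The forkhead site was found in that of Bcl2l11 (3.65% of all windows), and the p53 half-site in that of Bax (8.36% of all windows). Neither the STAT5 site (8.30% of all windows) nor the full element (1.79%) was found in any member. The windows of Bcl2 and Bax are shown because these 2 genes carry the main values below. Capitals mark the TGACG at position -107 of Bcl2 and the p53 half-site at position -201 of Bax, and neither match shows that a factor was bound.
Bcl2, chr1:106714241-106714540, minus strand: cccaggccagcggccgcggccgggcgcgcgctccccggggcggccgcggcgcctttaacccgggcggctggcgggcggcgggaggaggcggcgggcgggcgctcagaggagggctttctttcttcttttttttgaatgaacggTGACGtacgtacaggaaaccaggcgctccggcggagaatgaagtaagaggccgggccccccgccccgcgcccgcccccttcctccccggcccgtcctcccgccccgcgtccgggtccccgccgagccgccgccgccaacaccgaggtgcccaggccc
Bax, chr7:45466849-45467148, minus strand: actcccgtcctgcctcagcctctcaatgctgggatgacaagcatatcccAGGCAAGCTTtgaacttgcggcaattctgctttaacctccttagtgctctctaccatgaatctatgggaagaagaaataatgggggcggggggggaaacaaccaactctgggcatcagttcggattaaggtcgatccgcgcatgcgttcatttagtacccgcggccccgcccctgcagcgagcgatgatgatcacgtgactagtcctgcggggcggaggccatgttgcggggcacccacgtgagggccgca

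To compare levels between genes, CPM was divided by exon length in kb. On this scale, Bcl2a1d was the most abundant member, with 209 ± 65.7 CPM per kb (SD, n = 16 libraries), and it was above the next member in all 16 libraries. Mcl1 followed with 29.6 ± 11.0 and Bax with 19.9 ± 10.1, Mcl1 being the higher of these 2 in 13 of 16 libraries. Bcl2a1b (6.54 ± 3.04), Bcl2l11 (6.05 ± 3.38), Bcl2a1a (4.0 ± 5.39), Bcl2 (3.68 ± 2.33), and Bcl2l1 (3.37 ± 2.63) formed a middle group whose SDs overlapped between neighbours. Within it, each gene was above the next in this order in 9, 12, 6, and 9 of 16 libraries. Pmaip1 (1.70 ± 1.35) and Bid (1.66 ± 1.73) were the lowest. The level order changed with treatment. Bcl2 stood in place 7 of 10 under IL-7 or IL-33, 5 under CGRP, and 9 under NMU, where Bcl2a1a was above it in 2 of 4 libraries. Other members also moved, among them Bcl2a1a (places 4, 10, 9, and 8 under IL-7, IL-33, CGRP, and NMU) and Bcl2l1 (9, 5, 7, and 6).

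**Figure D1:**
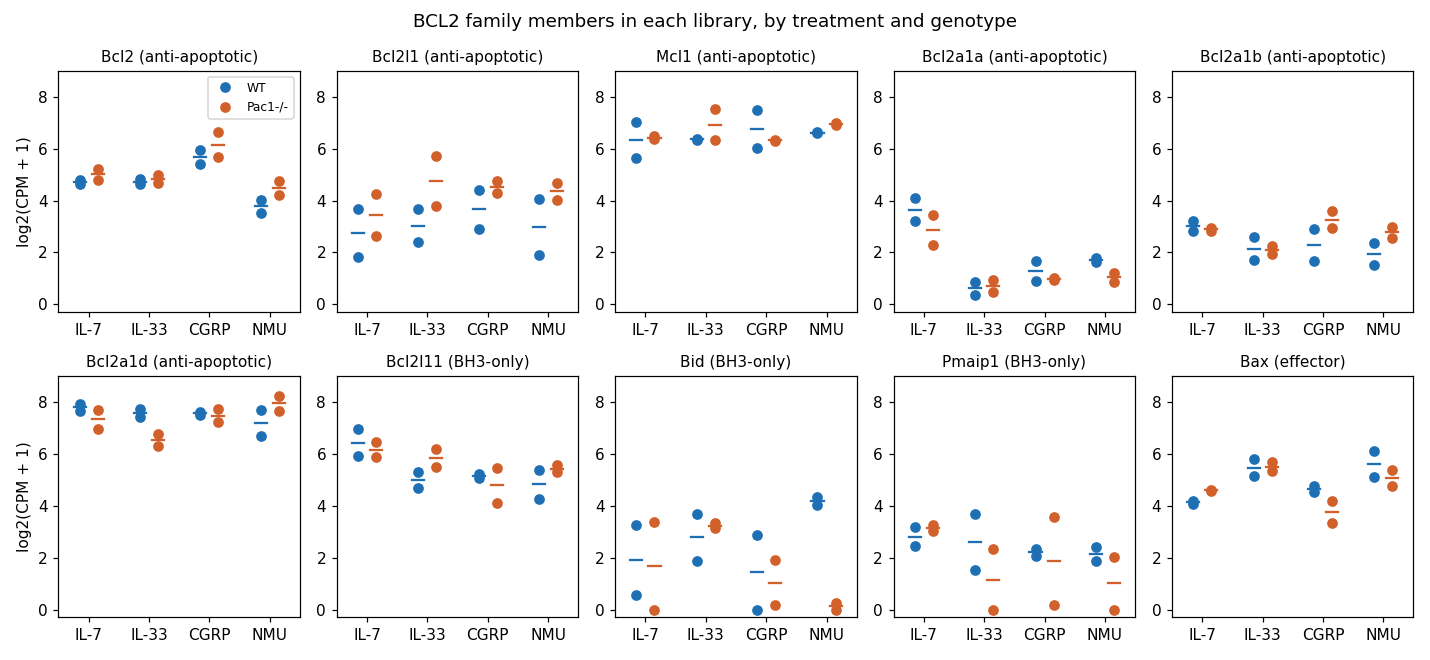
Each panel plots 1 member as log2(CPM + 1) against treatment, with a point for each library (blue WT, orange Pac1-/-) and a line at the mean of each group of 2. Bcl2 is highest with CGRP, Bcl2a1a reaches 3.92 CPM or more only with IL-7, Bax is lower with IL-7 and CGRP than with IL-33 and NMU, and Bid and Pmaip1 scatter between 0 and 19.5 CPM.

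Bcl2, the founding anti-apoptotic gene, was the member with the clearest difference between treatments. It was at 23.7 and 26.5 CPM in WT and 36.2 and 26.9 CPM in Pac1-/- libraries with IL-7. With IL-33, it was at 23.6 and 27.3 CPM in WT and 30.8 and 24.3 CPM in Pac1-/- ILC2s. With CGRP, the values were 41.8 and 61.3 CPM in WT and 49.8 and 97.8 CPM in Pac1-/- ILC2s. All 4 CGRP libraries thus lay above all 12 others, and the Pac1-/- replicate 2 library was the highest. With NMU, Bcl2 was at 15.4 and 10.6 CPM in WT and 26.1 and 17.4 CPM in Pac1-/- ILC2s. The NMU libraries were below every CGRP library, and 1 of the 4 overlapped the IL-33 range.

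Tests were made with edgeR's quasi-likelihood test on all 16 libraries, and a gene was called where its P value, adjusted by Benjamini-Hochberg over the 14979 genes, was under 0.05 and its fold exceeded 1.5. Bcl2 was lower with NMU than with CGRP by a log2 fold change of -1.88 (SE 0.364, edgeR adjusted P = 0.00951), and was the 1 member called, in a comparison where 5.47% of all genes tested were called. Its difference between CGRP and IL-33 was 1.22 (SE 0.356) and missed the cutoff (edgeR adjusted P = 0.0947), while between NMU and IL-33 it was -0.66 (SE 0.354, edgeR adjusted P = 0.804). Between IL-33 and IL-7, Bcl2 differed by -0.089 (SE 0.352). Within WT groups alone, the difference between NMU and CGRP was -1.99 (SE 0.518, edgeR adjusted P = 0.0845), and within Pac1-/- groups it was -1.77 (SE 0.512, edgeR adjusted P = 0.121). The call was lost without the Pac1-/- CGRP replicate 2 library (-1.58, edgeR adjusted P = 0.0723), the WT NMU replicate 2 library (-1.75, 0.0668), or the Pac1-/- NMU replicate 2 library (-1.74, 0.0762). In DESeq2, Bcl2 passed the cutoff for NMU against CGRP (adjusted P = 3.56e-06) and for CGRP against IL-33 (adjusted P = 0.00672).

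The sum of the B cell markers was highest in the Pac1-/- CGRP libraries, but not every marker followed it. The 5 markers (Cd79a, Cd79b, Ms4a1, Cd22, and Pax5) summed to 269 and 255 CPM in the Pac1-/- CGRP libraries and to 35.4 and 79.0 CPM in the WT CGRP libraries, against 0.270 to 43.0 CPM in the other 12 libraries. With CGRP, Cd79b reached 163 CPM, Ms4a1 84.4 CPM, and Cd79a 21.6 CPM, each its highest value. Pax5 was highest with IL-7 (5.22 CPM, against at most 1.93 CPM with CGRP). Cd22 was highest with NMU (2.11 CPM, against at most 0.986 CPM with CGRP). B cells also transcribe Bcl2, and the part of these reads in the Bcl2 values was not tested.

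Bax, the effector, had its lowest mean with CGRP, at 18.7 ± 7.27 CPM against 44.7 ± 9.77 CPM with IL-33 (SD, n = 4 libraries), a difference that was not called by edgeR. It was at 17.2 and 15.9 CPM in WT and 23.7 and 22.7 CPM in Pac1-/- libraries with IL-7, and at 55.2 and 34.0 CPM in WT and 50.4 and 39.3 CPM in Pac1-/- libraries with IL-33. With CGRP, Bax was at 22.3 and 26.0 CPM in WT and 17.4 and 9.15 CPM in Pac1-/- ILC2s. With NMU, it was at 33.2 and 67.9 CPM in WT and 26.5 and 40.9 CPM in Pac1-/- ILC2s. The IL-33 libraries were above all IL-7 and all CGRP libraries, and the NMU libraries were above all CGRP libraries, with 26.5 against 26.0 CPM at the nearest pair.

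None of these Bax differences passed the cutoff with edgeR. The log2 fold changes were 1.19 for IL-33 against IL-7 (SE 0.384, edgeR adjusted P = 0.393), -1.32 for CGRP against IL-33 (SE 0.386, edgeR adjusted P = 0.095), and 1.20 for NMU against CGRP (SE 0.385, edgeR adjusted P = 0.0944). NMU against IL-33 gave -0.12 (SE 0.379). With DESeq2, the differences of CGRP from IL-33 and from NMU passed the cutoff (adjusted P = 0.0134 and 0.0243), and that of IL-33 from IL-7 did not (adjusted P = 0.0657).

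The ratio of Bcl2 to Bax per kb was computed in each library, as the log2 of the ratio. It was -2.07 and -1.80 in WT and -1.93 and -2.29 in Pac1-/- libraries with IL-7, and -3.77 and -2.86 in WT and -3.25 and -3.24 in Pac1-/- libraries with IL-33. With CGRP, the ratio was -1.63 and -1.30 in WT and -1.02 and 0.88 in Pac1-/- ILC2s, and with NMU it was -3.65 and -5.22 in WT and -2.56 and -3.78 in Pac1-/- ILC2s. In the 4 CGRP libraries, the ratio was above that of all other libraries, and Pac1-/- CGRP replicate 2 was the only one with more Bcl2 than Bax per kb. The mean was -0.77 ± 1.13 with CGRP and -3.80 ± 1.09 with NMU (SD, n = 4 libraries). No test was made on the ratio, since both genes enter the tests above.

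**Figure D2:**
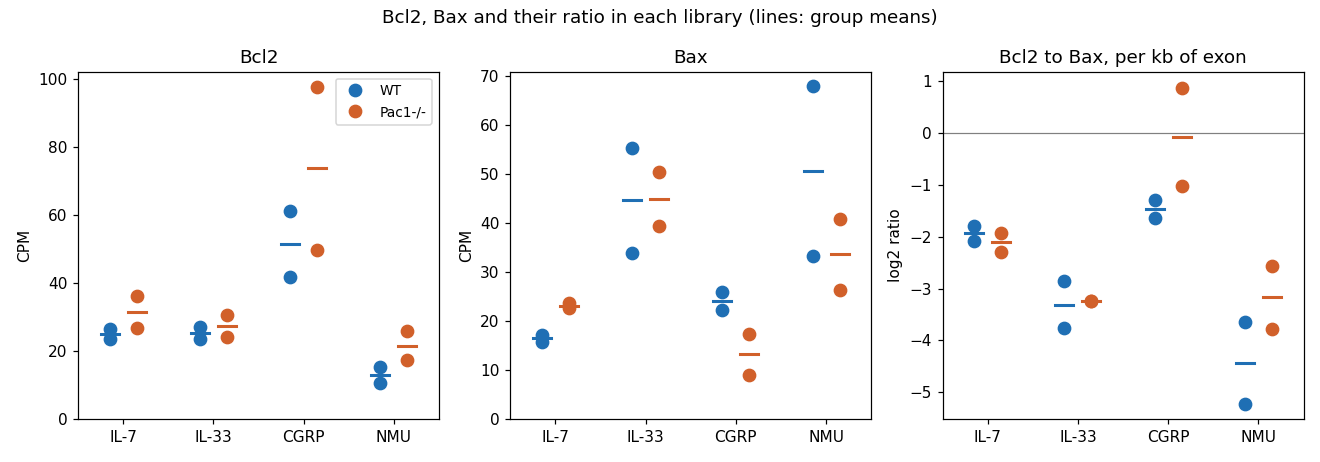
Bcl2 and Bax are plotted in CPM and their ratio per kb of exon as log2, for each library (blue WT, orange Pac1-/-), with a line at the mean of each group of 2. The 4 CGRP libraries, at -1.63 to 0.88, lie above the other 12 in the ratio, and those with NMU reach -5.22.

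Between IL-33 and IL-7 alone, the members with an unadjusted P value under 0.05 were Bcl2a1a, Bcl2l11, and Bax, and none passed the cutoff with edgeR. Bcl2a1a was at 8.19 and 16.1 CPM in WT and 3.92 and 9.97 CPM in Pac1-/- libraries with IL-7. With IL-33, it was at 0.297 and 0.800 CPM in WT and 0.910 and 0.407 CPM in Pac1-/- ILC2s, from 4 to 16 counts. It was between 0.889 and 2.19 CPM with CGRP and between 0.810 and 2.46 CPM with NMU. The IL-7 libraries were above all 12 libraries with IL-33, alone or with a neuropeptide. The log2 fold change of IL-33 against IL-7 was -3.91 (SE 1.02), with an adjusted P value of 0.335 in edgeR and 0.00184 in DESeq2. Of the reads on the 3 copies, Bcl2a1a held 1.83% to 7.14% with IL-7 and 0.171% to 1.998% in the other treatments. Summed over the 3 copies, the level was 209 ± 49.0 CPM with IL-7 and 147 ± 61.2 CPM with IL-33 (SD, n = 4 libraries).

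Bcl2l11, whose product BIM is the BH3-only protein best known for killing cytokine-starved lymphocytes, was at 58.8 and 123 CPM in WT and 86.2 and 58.2 CPM in Pac1-/- libraries with IL-7. It was at 38.4 and 24.5 CPM in WT and 44.5 and 71.8 CPM in Pac1-/- libraries with IL-33. The ranges overlapped through the Pac1-/- IL-33 replicate 2 library. With CGRP it was at 16.2 to 42.9 CPM and with NMU at 18.3 to 46.7 CPM, below all IL-7 libraries. The log2 fold change of IL-33 against IL-7 was -0.92 (SE 0.407, edgeR adjusted P = 0.478), and the differences of CGRP and NMU from IL-33 were -0.42 (SE 0.405) and -0.28 (SE 0.404). The ratio of Mcl1 to Bcl2l11 per kb, the pair of an inhibitor and its BH3-only partner, was 1.31 ± 1.04 as log2 with IL-7 and 2.48 ± 0.398, 2.85 ± 0.876, and 2.93 ± 0.502 with IL-33, CGRP, and NMU (SD, n = 4 libraries).

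The cytotoxic gene Gzma and the T cell markers Cd3d and Cd3g were also higher with IL-7, beside Bcl2a1a and Bcl2l11. Gzma was at 112 to 222 CPM in the IL-7 libraries and at 0 to 4.49 CPM in the others. Cd3d was at 73.9 to 103 against 2.39 to 27.5 CPM, and Cd3g at 160 to 255 against 29.8 to 158 CPM. Other T cell markers overlapped or were low. Trac was at 2.79 to 7.46 against 0.300 to 7.45 CPM, and Cd3e at 1.19 to 8.97 against 0 to 3.20 CPM. Cd4, Cd5, and Cd8b1 did not exceed 5.66 CPM. The 6 markers of ILC1s and NK cells summed to 118 to 239 CPM with IL-7 and to at most 5.29 CPM elsewhere, but Tbx21 was at 0 in all libraries, Ncr1 and Eomes did not exceed 2.70 CPM, and Cd8a was at 0. Their part in the levels of Bcl2a1a and Bcl2l11 was not tested.

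Mcl1, which encodes a short-lived anti-apoptotic protein that lymphocytes require, differed least between treatments. Its means were 87.1 ± 32.6 CPM with IL-7, 106 ± 50.8 with IL-33, 101 ± 53.1 with CGRP, and 111 ± 15.4 with NMU (SD, n = 4 libraries). The 4 treatment differences were between -0.067 and 0.24 on the log2 scale, with SEs of 0.365 to 0.366. Pac1-/- IL-33 replicate 2 (182 CPM) and WT CGRP replicate 1 (180 CPM) were far above the other libraries of their treatments, which were at 65.0 to 82.5 CPM.

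Bcl2a1d carried 88.6% to 98.5% of the reads on the 3 A1 copies. With IL-7, it was at 242 and 201 CPM in WT and 204 and 125 CPM in Pac1-/- libraries. With IL-33, the WT libraries were at 172 and 212 CPM and the Pac1-/- libraries at 107 and 79.0 CPM. With CGRP, the values were 181 and 196 CPM in WT and 210 and 147 CPM in Pac1-/- ILC2s, and with NMU they were 207 and 102 CPM in WT and 299 and 202 CPM in Pac1-/- ILC2s. The treatments overlapped, and the log2 fold change was -0.51 (SE 0.264) for IL-33 against IL-7, 0.46 (SE 0.264) for CGRP, and 0.55 (SE 0.264) for NMU against IL-33, with edgeR adjusted P values of 0.557, 0.407, and 0.785. Bcl2a1b was low throughout, at 1.89 to 11.1 CPM. Its IL-7 libraries (6.09 to 8.34 CPM) were above its IL-33 libraries (2.23 to 5.10 CPM), with a log2 fold change of -0.97 (SE 0.777, edgeR adjusted P = 0.756).

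Bcl2l1 varied widely between replicates. Its range was 2.57 to 18.0 CPM with IL-7, 4.24 to 51.3 with IL-33, 6.57 to 25.8 with CGRP, and 2.77 to 24.6 with NMU, and the highest value was again Pac1-/- IL-33 replicate 2. The SE of its treatment differences was 0.773 to 0.780, and the ranges of the 4 treatments overlapped.

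The BH3-only genes Bid and Pmaip1 were sparse. Bid, which links death receptors to mitochondria once cleaved by caspase 8, was at or under 3 counts in 5 of 16 libraries and reached 19.5 CPM. Pmaip1, whose product neutralizes MCL1, was at or under 3 counts in 3 of 16 libraries and reached 11.7 CPM. The SEs of their treatment differences were 1.52 to 1.75, and no direction is read from them. For Bid with NMU, the mean CPM was above that with IL-33 (8.80 against 7.84), whereas the fitted log2 fold change was -2.53.

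Calls among the 10 members were then set beside those among all genes. For IL-33 against IL-7, 0 members and 0.0334% of all genes were called by edgeR (1 member and 299 genes in all by DESeq2), and 3 members had an unadjusted P value under 0.05, as had 9.88% of all genes. For CGRP against IL-33, 0 members were called by edgeR against 2.76% of all genes (2 members and 1290 genes in all by DESeq2), and 2 had an unadjusted P value under 0.05, as had 16.7% of all genes. For NMU against IL-33, 0 members were called by edgeR or DESeq2 against 0.187% of all genes by edgeR and 216 genes by DESeq2, and 0 had an unadjusted P value under 0.05, as had 6.50% of all genes. For NMU against CGRP, where edgeR called Bcl2, DESeq2 called 2 members and 1868 genes in all, and 2 members had an unadjusted P value under 0.05, as had 20.3% of all genes. Groups of 4 libraries that did not overlap in CPM were found in 3 members for IL-33 against IL-7 (Bcl2a1a, Bcl2a1b, and Bax; 5.23% of all genes), in 2 for CGRP against IL-33 (Bcl2 and Bax; 9.71%), in 0 for NMU against IL-33 (4.35%), and in 2 for NMU against CGRP (Bcl2 and Bax; 13.3%). The median log2 fold change of the members was -0.30, 0.20, -0.17, and -0.12 in these 4 comparisons, and that of all genes 0.077, -0.091, -0.079, and -0.016. The comparisons with IL-33 share the IL-33 libraries, and the last shares the CGRP and NMU libraries with them.

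**Figure D3:**
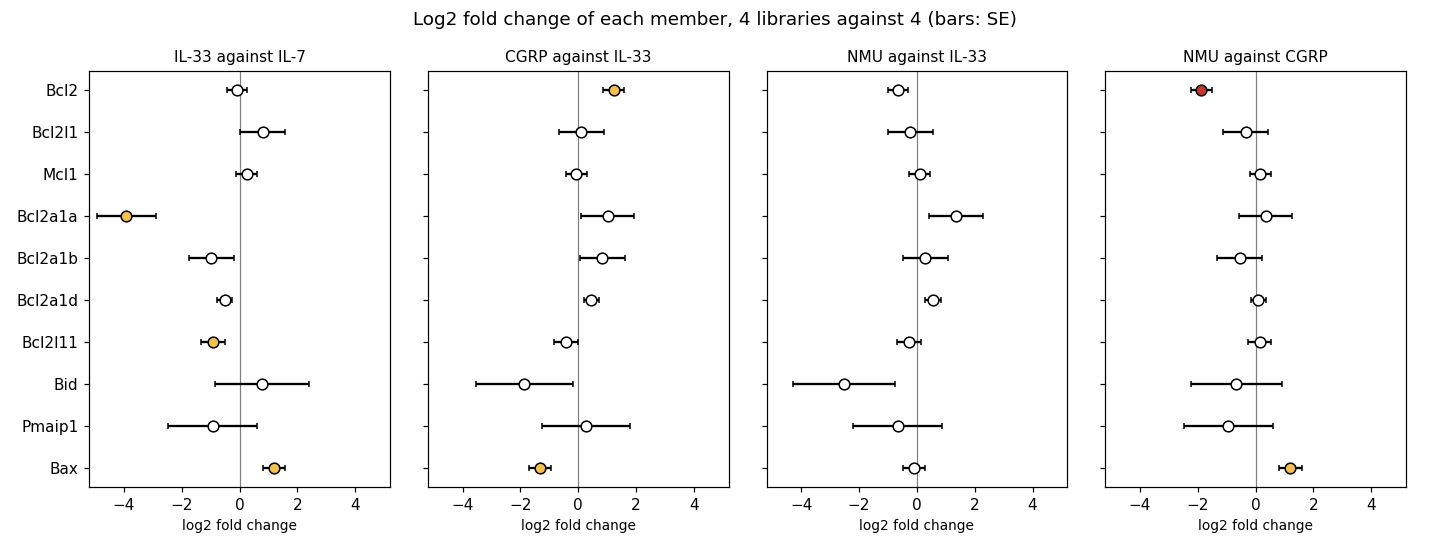
Log2 fold changes of the 10 members are plotted with their SE for the 4 treatment comparisons, 4 libraries against 4. Red marks a call, which Bcl2 reached for NMU against CGRP at -1.88, yellow an unadjusted P value under 0.05, and white the rest.

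Loss of PAC1 was compared with WT within each treatment and over all treatments. No member was called by edgeR or DESeq2 in any of these 5 comparisons, in which 0.113% of all genes were called over treatments and 0.00668%, 0.00668%, 0.107%, and 0.02% with IL-7, IL-33, CGRP, and NMU (edgeR). At an unadjusted P value under 0.05, there were 0 members over treatments, 0 with IL-7, 1 with IL-33, 0 with CGRP, and 1 with NMU, against 6.77%, 4.45%, 3.69%, 7.80%, and 3.29% of all genes. Over treatments, Bcl2l1 had the smallest P value, with 9.48 ± 6.49 CPM in WT libraries and 21.5 ± 13.7 CPM in Pac1-/- libraries (SD, n = 8 libraries). Its log2 fold change was 1.13 (SE 0.555, edgeR adjusted P = 0.764). Without the Pac1-/- IL-33 replicate 2 library this difference was 0.80. Bcl2 was 0.43 higher in Pac1-/- libraries (SE 0.249, edgeR adjusted P = 0.838), and Mcl1 differed by 0.083 (SE 0.258).

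With IL-33, Bcl2a1d was lower in both Pac1-/- libraries (107 and 79.0 CPM) than in both WT libraries (172 and 212 CPM), a log2 fold change of -1.04 (SE 0.376, edgeR adjusted P = 0.95). With NMU, its order was the other way in the mean, with 154 CPM in the WT libraries and 250.5 CPM in the Pac1-/- libraries. The interaction of genotype with NMU for Bcl2a1d was 1.74 (SE 0.531), with an adjusted P value of 0.912 in edgeR and 0.0724 in DESeq2. Bid had 101 and 175 counts in the WT NMU libraries and 2 and 0 counts in the Pac1-/- NMU libraries, and the edgeR adjusted P value was 1. No fold is given for it, as the Pac1-/- libraries were under the floor. Bcl2l13, which overlaps Bid, was at 0.308 and 12.4 CPM in WT and 11.5 and 2.25 CPM in Pac1-/- NMU libraries. Epithelial markers summed to 308 and 173 CPM in the WT NMU libraries and to 35.4 and 54.1 CPM in the Pac1-/- NMU libraries, and monocyte and macrophage markers to 123 and 39.6 against 15.95 and 2.79 CPM. Not every marker followed these sums. With NMU, Sftpc reached 178 CPM and Scgb1a1 90.5 CPM, while Sftpb and Cdh1 were at 0 and Krt18 did not exceed 1.67 CPM. Epcam was at 25.7 to 51.3 CPM with NMU and 39.4 to 80.8 CPM with IL-33. Lyz2 reached 112 CPM and Cd68 13.1 CPM with NMU, while Csf1r, Adgre1, Itgam, Mertk, and Marco did not exceed 2.20 CPM. The part of such cells in the Bid and Bax values with NMU was not tested.

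Whether the response to a treatment differed between the genotypes was tested as an interaction. Of the members, 0 were called by edgeR for IL-33, CGRP, or NMU, as were 0% of all genes in each. At an unadjusted P value under 0.05 there were 0, 0, and 1, against 4.85%, 6.04%, and 5.43% of all genes. DESeq2 called 0 members for IL-33 and CGRP, and for NMU it gave an adjusted P value for Bcl2a1d only. For Bcl2, the interaction with CGRP was 0.40 (SE 0.703). For Bax it was -0.87 (SE 0.760), and for Mcl1 it was -1.30 (SE 0.734, edgeR adjusted P = 0.807). The SEs of the members' interactions ran from 0.527 for Bcl2a1d to 3.68 for Bid.

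**Figure D4:**
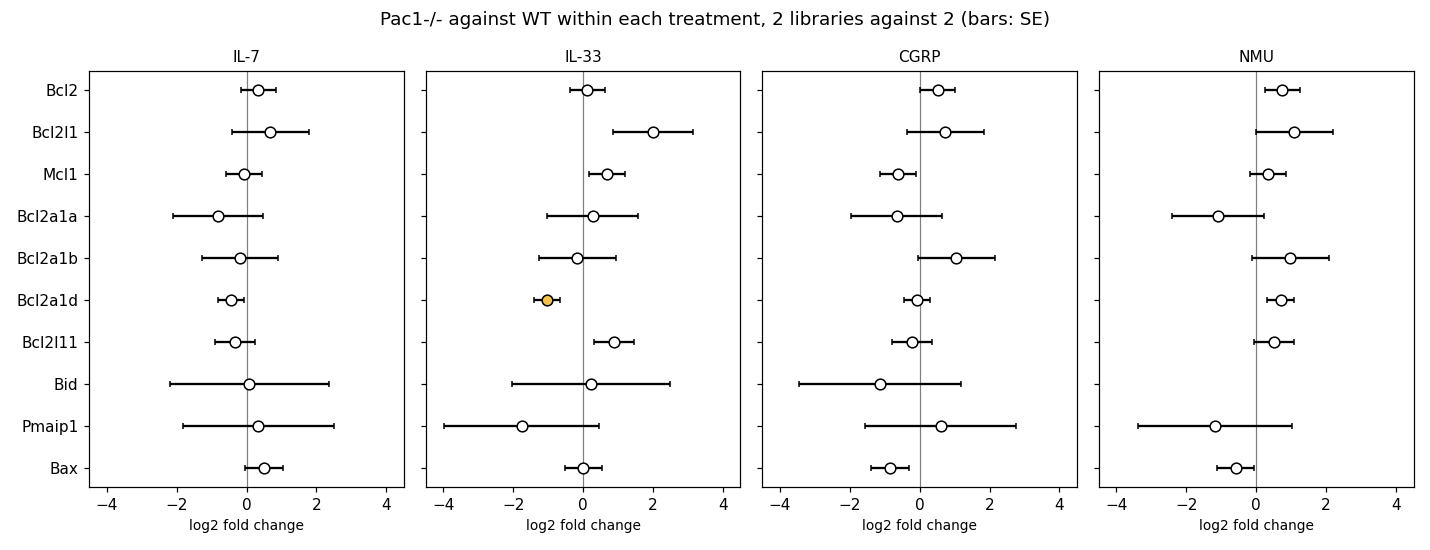
Log2 fold changes of Pac1-/- against WT are plotted with their SE within each treatment, 2 libraries against 2. No member was called, yellow marks Bcl2a1d with IL-33 (-1.04, unadjusted P value under 0.05), and Bid with NMU is left out because its Pac1-/- libraries held 2 and 0 counts.

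The rest of the death and survival pathway was followed in 7 lists of 79 genes, of which 72 were tested. For IL-33 against IL-7, 0 of the 72 were called by edgeR (9 at an unadjusted P value under 0.05). For CGRP against IL-33, 0 rose and 3 fell, for NMU against IL-33 0 rose and 1 fell, and for NMU against CGRP 5 were higher and 1 was lower. The shares called among all genes in these 4 comparisons were 0.0334%, 2.76%, 0.187%, and 5.47%, and nothing particular to the lists is read from the counts. Among the 16 other BCL2 family genes, 10 were tested and 0 were called in these 4 comparisons, with 1, 1, 2, and 0 at an unadjusted P value under 0.05. The effector Bak1 was at 0 to 2.52 CPM, and Bbc3, which encodes PUMA, at 0 to 0.275 CPM. Bnip3l, a mitophagy receptor, was the most abundant of them at 75.1 to 276 CPM.

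Il7r, the receptor for IL-7 and the entry of the survival signal, fell with NMU. It was at 597 to 932 CPM with IL-33, 741 to 1048 CPM with CGRP, and 299 to 427 CPM with NMU, so that the NMU libraries lay below all others. Its log2 fold change was -0.997 against IL-33 (SE 0.174, edgeR adjusted P = 0.0377) and -1.32 against CGRP (SE 0.175, edgeR adjusted P = 0.000791). The call against IL-33 was lost without WT IL-33 replicate 2 (edgeR adjusted P = 0.125), WT NMU replicate 2 (0.0671), Pac1-/- NMU replicate 1 (0.0503), or Pac1-/- NMU replicate 2 (0.0613), and with the replicate number as a block (0.0569). It was the 1 gene called among the 12 of IL-7 and STAT5 signaling in each of these comparisons. Cish, a STAT5 target that marks cytokine signaling, was at 18.9 to 42.9 CPM with IL-7 and 45.1 to 95.3 CPM with IL-33, a log2 fold change of 1.21 (SE 0.264, edgeR adjusted P = 0.235).

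Of the 9 tested genes of p53, FOXO, and stress inputs, 2 were higher with NMU than with CGRP. Trp53, which encodes p53, was at 20.2 to 35.8 CPM with CGRP and 45.5 to 220 CPM with NMU, a log2 fold change of 1.76 (SE 0.365, edgeR adjusted P = 0.0136). Mdm2, a p53 target and the ubiquitin ligase that degrades p53, was at 19.3 to 50.4 and 51.1 to 115 CPM, a log2 fold change of 1.62 (SE 0.340, edgeR adjusted P = 0.0145). Cdkn1a, also a known p53 target, went the other way in the mean, with 314 CPM with CGRP and 210 CPM with NMU. Its ranges were 223 to 448 and 157 to 262 CPM. The Trp53 call was lost without WT NMU replicate 2 (edgeR adjusted P = 0.0707) and the Mdm2 call without Pac1-/- NMU replicate 2 (edgeR adjusted P = 0.12). Relative to IL-33, Trp53 and Mdm2 differed by -1.36 and -1.16 with CGRP and missed the cutoff (edgeR adjusted P = 0.0669 and 0.0934).

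Between the neuropeptides, 1 of 15 apoptosome and caspase genes (Casp8) and 1 of 10 death receptor genes (Ripk3) were called, and between CGRP and IL-33 1 of each list was (Aifm1 and Mlkl). Casp8, the initiator caspase of death receptors, was at 138 to 231 CPM with CGRP and 306 to 446 CPM with NMU, a log2 fold change of 0.95 (SE 0.254, edgeR adjusted P = 0.0462). Ripk3, the kinase of necroptosis, was at 0.101 to 19.2 CPM with CGRP and 17.0 to 59.1 CPM with NMU, a log2 fold change of 3.08 (SE 0.750, edgeR adjusted P = 0.0298). For Ripk3, 1 of the 4 CGRP libraries was at or under 3 counts. The log2 fold change of Ripk3 was 2.62 without Pac1-/- CGRP replicate 1. Mlkl, which RIPK3 phosphorylates to open the membrane, fell with CGRP from 71.3 to 133 CPM with IL-33 to 12.2 to 57.9 CPM, a log2 fold change of -1.97 (SE 0.373, edgeR adjusted P = 0.0131). Aifm1, a mitochondrial flavoprotein, fell with CGRP by 2.25 on the log2 scale (SE 0.545, edgeR adjusted P = 0.0438), from 20.3 to 52.9 to 2.53 to 24.9 CPM. Within WT groups alone, the CGRP differences were -1.17 for Mlkl and -0.93 for Aifm1, and within Pac1-/- groups -2.76 and -3.57. The Casp8 call was lost without any 1 of 4 libraries, WT CGRP replicate 1, Pac1-/- CGRP replicate 2, or replicate 2 of either NMU group (edgeR adjusted P = 0.0554 to 0.0986), and the Ripk3 call without WT NMU replicate 2 (edgeR adjusted P = 0.0665), and its log2 fold change was 4.47 without Pac1-/- CGRP replicate 2. The Aifm1 call was lost without any of 6 of the 8 libraries compared, all but Pac1-/- IL-33 replicate 2 and WT CGRP replicate 1 (edgeR adjusted P = 0.0609 to 0.229).

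The ubiquitin ligase subunit Btrc, 1 of 9 genes in the list for turnover of the MCL1 and BIM proteins, was at 6.11 to 32.8 CPM with IL-33, 0 to 3.82 CPM with CGRP, and 4.05 to 23.3 CPM with NMU. It fell with CGRP by 4.27 on the log2 scale (SE 1.02, edgeR adjusted P = 0.0417) and was higher with NMU than with CGRP by 3.80 (SE 1.002, edgeR adjusted P = 0.0435). At or under 3 counts were 2 of the 4 CGRP libraries. The difference from IL-33 was -6.25 without Pac1-/- CGRP replicate 1, -4.93 without WT CGRP replicate 1, and -3.43 without Pac1-/- IL-33 replicate 1, and that from NMU was 5.77 and 4.46 without the same CGRP libraries. The CGRP call was lost without WT or Pac1-/- IL-33 replicate 1, or replicate 2 of either CGRP group (edgeR adjusted P = 0.057 to 0.197), and that against NMU without Pac1-/- IL-33 replicate 1, replicate 2 of either CGRP group, WT NMU replicate 2, or Pac1-/- NMU replicate 1 (edgeR adjusted P = 0.0523 to 0.15). Of the 7 tested caspase inhibitors, 0 were called in the 4 treatment comparisons, with 0, 2, 0, and 1 at an unadjusted P value under 0.05. The largest of these was Birc2, with a log2 fold change of 1.504 for CGRP against IL-33 (SE 0.506, edgeR adjusted P = 0.149).

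**Figure D5:**
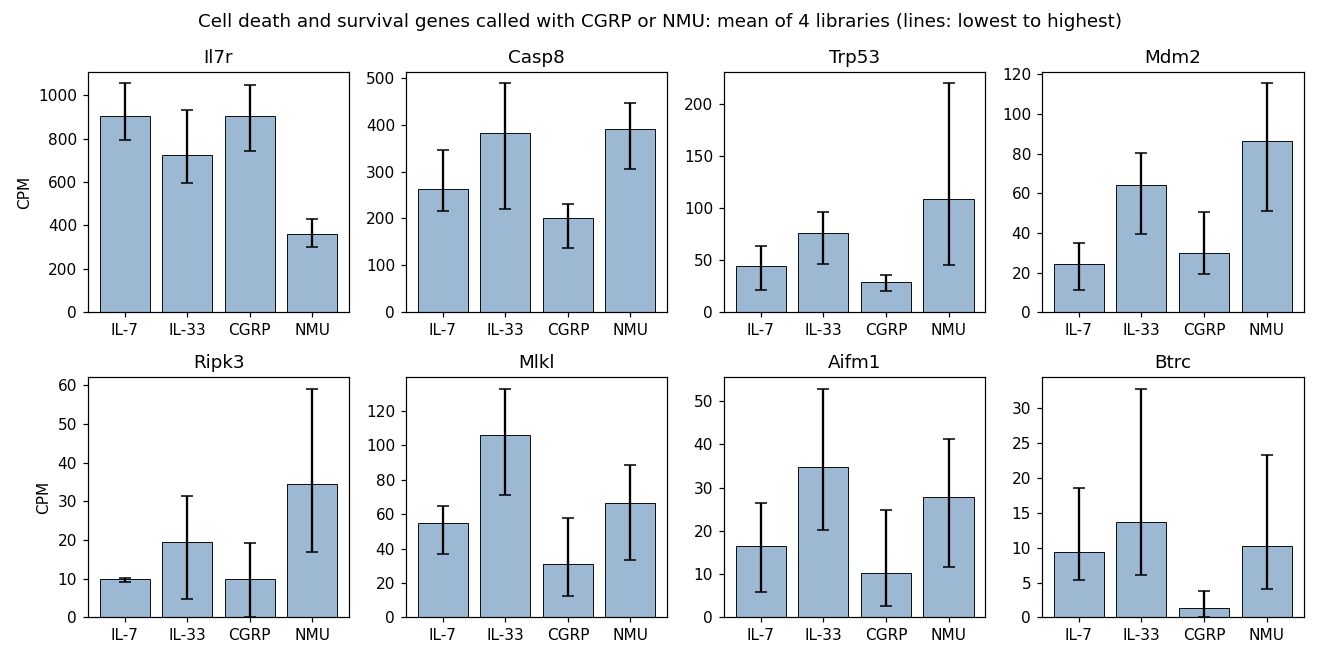
Bars give the mean CPM of 4 libraries in each treatment for the 8 pathway genes called in a comparison with CGRP or NMU, and lines run from the lowest to the highest library. Il7r is at 299 to 427 CPM with NMU, and Btrc at 0 to 3.82 CPM with CGRP.

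Among the 4554 genes averaging 20 CPM or more, those whose log2 CPM ran most like that of Bcl2 over the 16 libraries were Hspa1b (Pearson r = 0.903), Vps37b (r = 0.900), and Rn7sk (r = 0.898). These values are a description over libraries that fall into the 4 treatments and share their depth and scaling. Hspa1b, which encodes an inducible HSP70 chaperone, had mean levels of 17.3 CPM with IL-7, 10.9 with IL-33, 73.7 with CGRP, and 7.18 with NMU. Vps37b, a subunit of the ESCRT sorting machinery, had 9.53, 6.74, 60.3, and 3.91 CPM, and the small nuclear RNA Rn7sk had 53.9, 27.4, 122, and 18.3 CPM. All 3 had the same order of treatment means as Bcl2, with CGRP highest and NMU lowest. They were picked for likeness to Bcl2 over these libraries, so the shared order is not a separate result.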

How the data were processed

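Bulk mRNA-Seq was measured in 16 libraries of sorted lung ILC2s. Full-length cDNA was amplified and sequenced with paired-end reads on a NovaSeq platform, and HISAT2 alignment by the authors used the mm10 genome. The deposited values are raw counts for each Ensembl gene in each library, not normalized, and no molecular identifiers are described, so PCR copies may be counted more than once. The counting tool, annotation, strand setting, and handling of multimapping reads are not given in the sources used here. The authors' differential expression used DESeq2.

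Libraries were grouped by the genotype, treatment, and replicate in the sample labels. Symbols, exon lengths, and positions came from GENCODE M21. In R 4.3.3, edgeR 4.0.16 was run with TMM scaling, filterByExpr by group, and a quasi-likelihood fit of 8 group means over all 16 libraries, with 12 contrasts. Genes were called at an adjusted P value under 0.05 and a fold change above 1.5. The alternatives were DESeq2 1.42.0, RLE size factors, no filter, a minimum of 10 counts in all libraries, the replicate number as a block, only the libraries compared, the Bcl2a1 rows summed, the adjusted P value alone, each library left out, total-count scaling, the longest transcript as length, a prior count of 0.5 or group means for likeness, and, chosen after seeing the data, WT or Pac1-/- groups alone. The scripts were tested on simulated data. BLAST 2.17.0 was used to look for near-identical stretches.

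Named genes were the 10 members, Dusp2, up to 4 called genes per list and comparison (or up to 2 of smallest P where none was called), and the 3 genes most like a called member (log2 CPM with a prior count of 2). Marker genes, Bak1, Bbc3, Bnip3l, Cdkn1a, and overlapping genes were named beside these after their values were seen. The members and lists were chosen with earlier results of these data known. One marker gene is not reported here and was left out of its list.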

Additional observations from a re-analysis of the deposited data

Results flagged for a closer look

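Within each treatment, the 4 libraries of each member were examined for a single library far from the other 3 (gap over range above 0.829, Dixon's 95% value), and 3 of 40 sets were found, where chance gives about 1 in 20. Mcl1 was at 182 CPM in Pac1-/- IL-33 replicate 2, against 78.7 to 82.5 CPM in the other IL-33 libraries. Mcl1 was at 180 CPM in WT CGRP replicate 1, against 65.0 to 79.8 CPM in the other CGRP libraries. Bcl2a1a was at 2.19 CPM in WT CGRP replicate 2, from 20 counts, against 0.889 to 1.03 CPM in the other CGRP libraries. Pac1-/- IL-33 replicate 2 also had the highest Bcl2l1 value, 51.3 CPM, and the highest scaling factor, and the part of scaling in these values was not tested.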

How the results depend on the processing

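DESeq2 called 1 member for IL-33 against IL-7 (Bcl2a1a) and 2 each for CGRP against IL-33 and NMU against CGRP (Bcl2 and Bax), and at least 10 counts in every library called 1 for CGRP against IL-33 (Bcl2, adjusted P = 0.0461). WT groups alone and Pac1-/- groups alone, chosen after seeing the data, called 0 and 0 for NMU against CGRP, and leaving out 1 library called 0 to 1. The cause was not tested. With the Bcl2a1 rows summed into 1 row, the sum differed by 0.081 for NMU against CGRP and -0.20 for genotype, where the Bcl2a1b row alone went the other way.

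Leaving out 1 library turned the direction of differences that were not called. Against IL-7, IL-33 gave -0.23 to 0.038 for Bcl2 and -0.15 to 0.68 for Mcl1. CGRP against IL-33 gave -0.42 to 0.79 for Bcl2l1, -0.54 to 0.31 for Mcl1, and -2.38 to 3.999 for Pmaip1. NMU against IL-33 gave -1.11 to 0.44 for Bcl2l1, -0.16 to 0.46 for Mcl1, -0.043 to 0.64 for Bcl2a1b, -4.23 to 3.04 for Pmaip1, and -0.43 to 0.097 for Bax. NMU against CGRP gave -1.22 to 0.19 for Bcl2l1, -0.12 to 0.63 for Mcl1, -0.21 to 0.31 for Bcl2a1d, -0.19 to 0.58 for Bcl2l11, -2.26 to 3.43 for Bid, and -4.48 to 1.70 for Pmaip1. Genotype gave -0.090 to 0.31 for Mcl1 and -0.0016 to 0.39 for Bcl2l11.

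Counts of all genes called are given in the order IL-33, CGRP, NMU, NMU against CGRP, genotype overall and in the 4 treatments, and the 3 interactions. They were 299, 1290, 216, 1868, 134, 63, 27, 393, 47, 16, 120, and 24 in DESeq2, and 199, 845, 116, 1318, 117, 21, 26, 183, 39, 21, 70, and 53 without a filter. Leaving out 1 library gave 5 to 66, 281 to 851, 31 to 72, 669 to 1238, 17 to 103, 1 to 18, 2 to 6, 40 to 237, 5 to 13, 0 to 6, 1 to 126, and 1 to 5. Only the libraries compared gave 10, 199, 14, and 525 for the treatments and 0 for genotype with CGRP. WT groups alone gave 0, 69, 2, and 201 and Pac1-/- groups alone 2, 171, 16, and 237 for the treatments. At least 10 counts in every library gave 53 for NMU and 2 for genotype with CGRP, and RLE size factors gave 5 for genotype with NMU.

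The replicate numbers showed no clear pairing of the libraries. Correlations of same-numbered deviations were -0.255 to 0.221 over 28 pairs of groups, with a median of -0.0045 and 4 above 0.1. A weak pairing, or a pairing of some groups only, cannot be told from these values. With the number as a block, Bcl2 for NMU against CGRP had an adjusted P of 0.0164, no count of members called changed, and all genes called were 2 for IL-33 and 10 for genotype with CGRP. Per kb of the longest transcript, the levels of Bcl2l1 and Bcl2l11 moved, and with 8 group means 1 of the 3 genes most like Bcl2 was shared.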
